A study of Anolis carolinensis with 15 samples.

Results

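Platelet-derived growth factors (PDGFs) and their receptors were examined in connective tissue cells of regenerating lizard tails. The members were the 7 genes of the family looked for by symbol in the gene lists of the green anole (*Anolis carolinensis*), namely the ligand genes *pdgfa*, *pdgfb*, *pdgfc* and *pdgfd*, the receptor genes *pdgfra* and *pdgfrb*, and the receptor-like gene *pdgfrl*. All 7 were present among 26523 genes, and all 7 passed the filter on low counts in every comparison. The study sorted fixed tail cells that were labeled for *col3a1* transcripts by fluorescence in situ hybridization and sequenced their RNA in bulk. The time course comprised 3 libraries each from untreated tails at D7, D14 and D28 after amputation. At D21, 3 libraries came from lizards injected into the abdominal cavity with zoledronic acid (ZA), a bisphosphonate that acts against the bone-resorbing osteoclasts, and 3 from lizards given its vehicle, phosphate-buffered saline (PBS). The comparisons asked how these cells change as the tail regrows and how they differ when osteoclasts are inhibited. Lizards of both sexes and about a year of age or younger were used. No transgene was used, so the sort rests on the *col3a1* probe. At D21 cells positive for the epidermal keratin gene *krt5* were gated out, whereas the study's text names both *krt5*-negative and *krt5*-positive cells for the time course. Separate tails are described for D21 and repeated experiments for the time course, but the labels do not say whether libraries A, B and C came from separate animals, so that p-values measure only the spread between these libraries, which may be technical.

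PDGFs are secreted dimers that drive the proliferation and migration of mesenchymal cells. In mammals, PDGF-A and PDGF-B are cut to their active form inside the cell by furin-type proteases, whereas PDGF-C and PDGF-D leave the cell with a CUB domain that proteases such as tissue plasminogen activator, urokinase or matriptase remove outside. The ligands bind a pair of receptor tyrosine kinases. PDGFRA, the receptor for the A, B and C chains, marks many fibroblast progenitors, and PDGFRB, the receptor for the B and D chains, is found on fibroblasts and on the mural cells that cover vessels. PDGFRL resembles the outer part of these receptors but has no kinase domain.

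Library totals lay between 4237978 counts in ZA A and 12699682 counts in D14 A. D14 libraries differed from the rest in the number of genes with a count, at 24898, 24900 and 24881. Other libraries had 19909 (PBS A) to 23061 (ZA C) such genes, with 22817 in ZA B at a total of 12444012 counts. Comparisons with D14 cannot tell this difference between libraries apart from the timepoint. Library D28 A stood apart, since its Spearman correlation with the rest of its group had a median of 0.749, against 0.836 to 0.970 for the other 14 libraries, and values without it are given for the members whose differences it moved most. The recorded treatment was N/A for PBS A and PBS for ZA A, so that both disagreed with their titles. The titles were followed, and the ZA comparison was repeated without both libraries. It was also repeated with the treatment entries as written, that is, with ZA A among the PBS libraries and PBS A left out. As to the fibroblast label, collagen transcripts were found in every library, with *col3a1* between 1729 and 22124 CPM, which are counts scaled by library size. Epidermal genes were also present, since *dsp*, which encodes a protein of cell junctions, lay between 244 and 3839 CPM. Another epidermal marker, *perp*, had means of 7.24 CPM at D7 and 52.8 CPM at D28. The fibroblast markers *dcn*, a matrix proteoglycan gene, and *fap*, a surface protease gene, reached at most 115 and 23.7 CPM. The collagen gene *col1a1* of the same list had means of 3665 CPM at D14 and 26424 CPM at D28. Single markers do not stand for their lists, and these levels give no measure of cell content.

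In the rAnoCar3.1.pri assembly all 7 members are annotated as protein-coding. On chromosome 5 lie *pdgfc* (52294349 to 52422940), *pdgfrl* (70923041 to 70982026), *pdgfra* (75092711 to 75161892) and *pdgfb* (172084490 to 172144443). *pdgfd* lies on chromosome 3 (23597489 to 23799909), *pdgfrb* on chromosome 2 (98941896 to 99039125), and *pdgfa* on an unplaced sequence (542836 to 574980). Both receptor genes sit beside genes of related receptors. *csf1r*, the receptor of a macrophage growth factor, lies 10926 bases from *pdgfrb*, and *kit*, the stem cell factor receptor, lies 198570 bases from *pdgfra*. *pdgfc* overlaps a long noncoding RNA gene with 1 to 57 counts per library, and *pdgfrl* overlaps a protein-coding gene of 0 to 29 counts. How reads in such overlaps were counted is not given in the sources used here.

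Levels are given as CPM after TMM scaling, and changes as log2 fold changes of a quasi-likelihood fit in edgeR. Calls required a Benjamini-Hochberg adjusted p under 0.05 over all genes tested. How many of all genes had groups without overlap was not counted, so the statements on overlap have no background and are descriptions only. Levels of different genes are not compared, because they were not scaled by transcript length. As the RNA came from many cells at once, fewer cells of a type and less RNA per cell cannot be told apart.

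**Figure D1:**
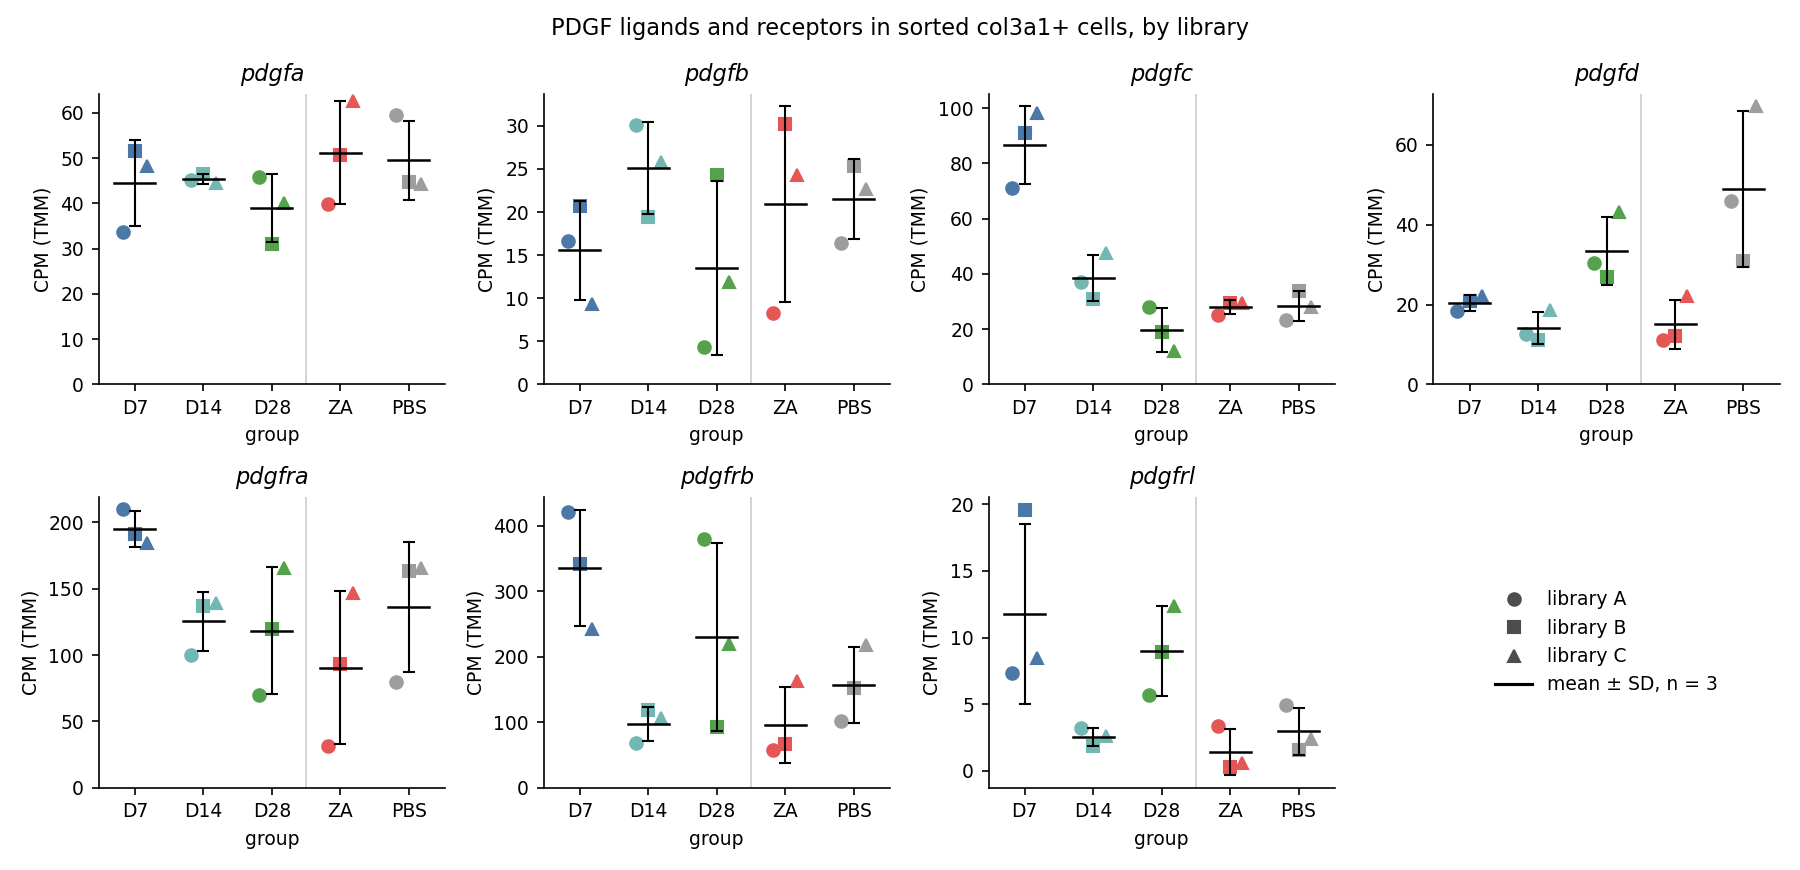
Level of each of the 7 genes in CPM after TMM scaling (y axis) in the D7, D14, D28, ZA and PBS groups (x axis), with each library as a point and its letter as the shape, and bars for the mean ± SD of 3 libraries. *pdgfc* lay at 70.9 to 98.1 CPM at D7 and at 11.9 to 27.9 CPM at D28, whereas *pdgfa* overlapped between all groups.

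Among the ligands, *pdgfc* fell over the time course, *pdgfa* and *pdgfb* showed no change that passed the test, and *pdgfd* had its highest levels at D28 and in PBS tails without a call in any comparison. Among the receptors, *pdgfrb* was called lower at D14 than at D7. At D14 against D7, 0 members were called higher, where 2.25% of all genes tested were, and 1 of 7 was called lower, where 2.35% were. At D28 against D14, 0 were called in either direction, where 0.675% of genes were higher and 0.347% lower. Between D28 and D7, 0 were higher, where 4.18% of genes were, and 1 of 7 was lower at D28, where 4.05% were. With 7 genes, counts of 0 or 1 give no share that could be set apart from these. At an unadjusted p under 0.05 there were 3 members at D14 against D7, where 21.4% of all genes tested were, 4 at D28 against D14, where 11.1% were, and 2 at D28 against D7, where 26.5% were. DESeq2 called 3, 2 and 1 of the members in these comparisons, where it called 12.4%, 3.73% and 17.7% of the genes to which it gave an adjusted p. The median log2 fold change of the members was -0.64, -0.08 and -0.39, beside 0.06, 0.05 and 0.14 over all genes tested.

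*pdgfc*, a ligand of PDGFRA, gave the largest fall among the ligands. D7 libraries A, B and C had 70.9, 91.1 and 98.1 CPM, D14 libraries 37.0, 30.9 and 47.6 CPM, and D28 libraries 27.9, 19.1 and 11.9 CPM. Every D7 library lay above every D14 library, and every D14 library above every D28 library. At D28 against D7 it fell by 2.15 on the log2 scale (SE 0.37, adjusted p = 0.00882), to 19.6 ± 7.99 CPM at D28, against 86.7 ± 14.1 CPM at D7 (SD, n = 3 each). This call was kept in 17 of 17 alternatives, with log2 fold changes of -2.48 to -1.88. In the same comparison 6 of 6 epidermal, 5 of 7 chondrocyte and 4 of 5 Schwann cell markers were called higher. So were 2 of 5 skeletal muscle, 1 of 6 mural and 1 of 6 fibroblast markers, where 4.18% of all genes were called higher. The epidermal sum was 737 CPM in D28 A, 5093 CPM in D28 B and 3675 CPM in D28 C, against 481 to 820 CPM in D7 libraries. The 4 epidermal calls with the largest change were lost in 2 to 9 of 17 alternatives. The part of all these markers in the *pdgfc* levels was not tested. The steps between neighbouring timepoints did not pass the test with all libraries, at -1.17 for D14 against D7 (SE 0.35, adjusted p = 0.0804) and -0.97 for D28 against D14 (SE 0.36, adjusted p = 0.301). Without D28 A both did, with -1.17 (adjusted p = 0.0130) and -1.31 (adjusted p = 0.0405), and the number of all genes called grew to 3550 and 851. At D21 *pdgfc* had 25.0, 29.5 and 29.4 CPM in ZA libraries, against 23.1, 33.8 and 28.0 CPM in PBS libraries. These groups overlapped, with a log2 fold change of -0.01 (SE 0.38, adjusted p = 0.9995). Ordered by mean, *pdgfc* was highest at D7, followed by D14, PBS, ZA and D28. Each neighbour in that order overlapped the next except D7 and D14.

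*pdgfd*, a ligand of PDGFRB, followed another course. It had 18.3, 20.9 and 22.1 CPM at D7, 12.6, 11.2 and 18.7 CPM at D14, and 30.3, 26.9 and 43.1 CPM at D28. All D28 libraries lay above all libraries of both earlier timepoints, whereas D7 and D14 overlapped. At D28 against D14 the log2 fold change of *pdgfd* was 1.24 (SE 0.35, adjusted p = 0.165), and at D28 against D7 it was 0.71 (SE 0.35, adjusted p = 0.218). DESeq2 called the D28 against D14 difference, at 1.28 with an adjusted p of 0.0280. The levels of *pdgfd* at D21 were 11.1, 12.02 and 22.1 CPM in ZA libraries, against 46.0, 30.9 and 69.8 CPM in PBS libraries. Each ZA library was thus below each PBS library, and the PBS level was 4.15, 2.57 and 3.16 times the ZA level in pairs A, B and C. In pair A the recorded treatments disagreed with the titles. The log2 fold change of ZA against PBS was -1.69 (SE 0.46), which did not pass the adjustment (unadjusted p = 0.00374, adjusted p = 0.755). Over the alternatives the adjusted p of *pdgfd* lay between 0.102 with DESeq2 and 0.99996 without PBS C. With the replicate letter as a block it was 0.123, and without PBS A and ZA A the difference was -1.56 on the log2 scale (adjusted p = 0.504). With the treatment entries as written the difference was -1.13 (adjusted p = 0.9997). That was the smallest over the alternatives, and the largest was -2.08 without ZA C. By group mean *pdgfd* was highest in PBS, then at D28 and D7, and lowest in ZA and at D14, and D28 and D7 were the only neighbours that did not overlap.

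Chondrocyte markers also differed between these groups. The summed level of 7 chondrocyte markers, such as the cartilage collagen gene *col2a1*, was 224 to 490 CPM in ZA libraries, against 2524 to 17736 CPM in PBS libraries. Over time it was 113 to 588 CPM in D7 libraries, 370 to 435 CPM in D14 libraries and 4763 to 7065 CPM in D28 libraries. No marker of the list was at 0 in any library. Of the 7 markers, 5 were called higher at D28 than at D14, and 1, the cartilage proteoglycan gene *acan*, was called lower in ZA than in PBS, a call that was lost in 8 of 16 alternatives, among them 5 of 6 with 1 library left out. With the replicate letter as a block, 5 of the 7 were called lower in ZA, among them *col2a1* at -6.42 (adjusted p = 0.000506) and *acan* at -4.93 (adjusted p = 0.00123), where 0.169% of all genes were called in either direction. At D14 against D7 the median log2 fold change of the markers was 0.34 with 0 calls, while that of *pdgfd* was -0.53. Their part in the *pdgfd* levels was not tested.

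*pdgfa* and *pdgfb*, which are cut inside the cell, showed no call. *pdgfa* had group means between 39.0 and 51.2 CPM. It had 33.6, 51.6 and 48.3 CPM at D7, 45.1, 46.6 and 44.5 CPM at D14, and 45.8, 31.1 and 40.0 CPM at D28. ZA libraries had 40.0, 50.8 and 62.7 CPM of *pdgfa*, against 59.6, 44.8 and 44.3 CPM in PBS libraries. All groups overlapped their neighbours, and the log2 fold changes of *pdgfa* lay between -0.22 and 0.05 with SEs of 0.30 to 0.36 over the 4 comparisons. *pdgfb*, which endothelial cells release in mammals to attract pericytes, varied more within groups. It had 16.6, 20.7 and 9.28 CPM at D7, 30.1, 19.4 and 25.8 CPM at D14, and 4.33, 24.3 and 11.9 CPM at D28, where library D28 A was the lowest of all 15. The ZA libraries had 8.25, 30.2 and 24.4 CPM of *pdgfb*, against 16.4, 25.4 and 22.7 CPM in PBS libraries. The largest difference was that of D28 against D14, with a log2 fold change of -0.89 (SE 0.55, adjusted p = 0.618), and all neighbours in the order of means overlapped. This *pdgfb* value was -0.47 without D28 A and -1.62 without D28 B, and neither passed the test (adjusted p = 0.602 and 0.219). Endothelial markers were low, with summed levels over 8 genes of 23.0 to 35.4 CPM in D7, 47.4 to 61.4 CPM in D14 and 24.9 to 57.3 CPM in D28 libraries. Their part in the *pdgfb* levels was not tested.

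The share of each ligand among the counts of the 4 ligand genes within a library does not depend on the scaling between libraries. It does depend on transcript length and is therefore read between groups only. For *pdgfc* the share was 51.8% ± 3.01 on D7, 31.0% ± 3.34 on D14 and 18.6% ± 7.30 on D28 (SD, n = 3 each). For *pdgfd* it was 12.3% ± 0.88 on D7, 11.4% ± 2.02 on D14 and 31.6% ± 7.60 on D28. The shares of the 2 ligands with a CUB domain thus went opposite ways between D7 and D28, without overlap between these groups. Shares of a library add up to a fixed whole, so a fall of one ligand raises the shares of the others. The *pdgfa* share was 26.4% on D7 and 36.8% on D28, while its level was 44.5 and 39.0 CPM. The *pdgfd* level itself was not called at D28 against D7 (log2 fold change 0.71, adjusted p = 0.218). The share of *pdgfd* was 12.96% ± 3.06 in ZA libraries, against 32.3% ± 9.75 in PBS libraries, with no overlap. The shares of *pdgfa*, 44.7% ± 3.01 in ZA against 33.7% ± 7.12 in PBS, did not overlap either, while those of *pdgfb*, 17.3% ± 7.44 in ZA against 14.6% ± 3.83 in PBS, did.

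**Figure D2:**
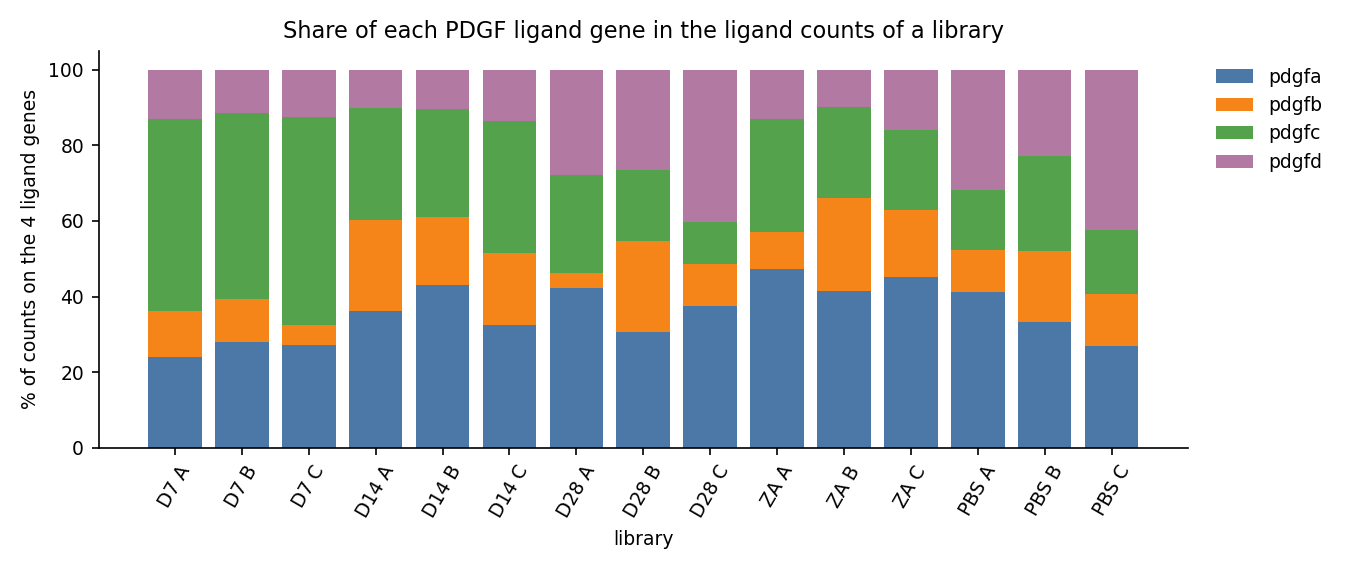
Share of each PDGF ligand gene (y axis, % of the counts of the 4 ligand genes) in each of the 15 libraries (x axis), stacked to 100. The *pdgfc* part was 49.4% to 55.2% at D7 and 11.1% to 25.7% at D28, and the *pdgfd* part was 9.81% to 15.9% in ZA libraries and 22.9% to 42.4% in PBS libraries.

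*pdgfrb*, the receptor gene for the B and D chains, was the only receptor gene called. It had 421, 342 and 243 CPM at D7, 68.1, 118 and 107 CPM at D14, and 379, 93.4 and 219 CPM at D28. D7 and D14 did not overlap, whereas D28 reached across both, with library D28 A near the top and D28 B among the D14 levels. At D14 against D7 *pdgfrb* fell by 1.78 on the log2 scale (SE 0.46, adjusted p = 0.0488), to 97.6 ± 26.2 CPM at D14, against 335 ± 89.1 CPM at D7 (SD, n = 3 each). The call stood close to the threshold. It was kept in 7 of 17 alternatives, with log2 fold changes of -1.97 to -1.58 and adjusted p-values of 0.00336 to 0.196 over the 17. It was lost with DESeq2's size factors (0.0536), with library totals alone (0.0882), with the replicate letter as a block (0.0927), and without D7 A (0.112), D7 B (0.145), D7 C (0.116), D14 A (0.196), D14 B (0.146), D14 C (0.130) or D28 C (0.0634). Without D28 A its adjusted p was 0.00506. At D28 against D14 the log2 fold change of *pdgfrb* was 1.24 (SE 0.45, adjusted p = 0.304), and at D28 against D7 it was -0.54 (SE 0.45, adjusted p = 0.472). Without D28 A these values were 0.68 and -1.10, and neither passed the test. The *pdgfrb* levels were 57.5, 66.6 and 163 CPM in ZA libraries, against 102, 153 and 218 CPM in PBS libraries. ZA and PBS overlapped, with a log2 fold change of -0.71 (SE 0.47, adjusted p = 0.999). With the replicate letter as a block the *pdgfrb* value was -0.81 (SE 0.26, adjusted p = 0.342). With the treatment entries as written it was -0.31. With 1 library left out it lay between -1.34 without ZA C and -0.41 without PBS C. None of these passed the test. In the order of means, D7 was followed by D28, PBS, D14 and ZA, and each overlapped the next.

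*pdgfra*, the receptor gene for the A, B and C chains, had its highest levels at D7. It had 210.2, 191 and 184 CPM at D7, 99.8, 137 and 139 CPM at D14, and 69.6, 119.7 and 166 CPM at D28. Every D7 library lay above all libraries of both later timepoints, which overlapped each other. The differences did not pass the test, with log2 fold changes of -0.64 for D14 against D7 (SE 0.33, adjusted p = 0.291), -0.72 for D28 against D7 (SE 0.33, adjusted p = 0.188) and -0.08 for D28 against D14 (SE 0.33, adjusted p = 0.961). Without D28 A the values of *pdgfra* were -0.45 for D28 against D7 and 0.19 for D28 against D14. The *pdgfra* levels were 31.4, 93.4 and 147 CPM in ZA libraries, against 79.8, 164 and 165 CPM in PBS libraries. Library ZA A had the lowest *pdgfra* level of all 15, and the groups overlapped (log2 fold change -0.59, SE 0.52, adjusted p = 0.999). With the replicate letter as a block the *pdgfra* value was -0.77 (SE 0.29, adjusted p = 0.446). With the treatment entries as written it was -0.0036. With 1 library left out it lay between -1.12 without ZA C and -0.18 without ZA A. None of these passed the test. Behind D7 the means of PBS, D14, D28 and ZA followed in that order, and D7 was the only group that did not overlap its neighbour.

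*pdgfrl*, the receptor-like gene without a kinase, had the fewest reads, with 3 to 170 counts per library. Its levels were 7.33, 19.6 and 8.48 CPM at D7, 3.19, 1.83 and 2.59 CPM at D14, and 5.68, 8.89 and 12.4 CPM at D28. All D14 libraries lay below all D7 and all D28 libraries. The log2 fold change of D14 against D7 was -2.21 (SE 0.59, adjusted p = 0.0544), just above the threshold. Of 17 alternatives, 3 called it, DESeq2 (adjusted p = 0.00361), a mean count of at least 50 (0.0427) and the fit without D28 A (0.0123). For D28 against D14 the log2 fold change of *pdgfrl* was 1.82 (SE 0.58, adjusted p = 0.227), and DESeq2 called it with 1.86 (adjusted p = 0.0458). The ZA libraries had 3.35, 0.27 and 0.60 CPM of *pdgfrl*, from 13, 3 and 6 counts, against 4.95, 1.56 and 2.39 CPM in PBS libraries, from 48, 13 and 16 counts. The ZA difference did not pass the test (log2 fold change -1.15, SE 1.26, adjusted p = 0.999). It lay between -2.76 without ZA A and -0.58 without PBS A, was -2.45 with the treatment entries as written and -1.64 with the replicate block (adjusted p = 0.798), and was not called in any of these. The means of *pdgfrl* at D7 and D28 lay above those of PBS, D14 and ZA, and D28 and PBS were the only neighbours without overlap.

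At D14, where *pdgfrb* was called lower, marker levels also differed. The summed level of 6 fibroblast markers was 7228 to 8543 CPM at D14, against 17776 to 20528 CPM at D7, although 0 of the 6 passed the test. *col3a1*, the gene used for the sort, had 1732, 1729 and 1777 CPM at D14, against 5074, 5164 and 7476 CPM at D7. Over all genes tested, 2.25% were called higher and 2.35% lower at D14 against D7. Of 6 epidermal markers 5 were called higher at D14, with a summed level of 3251 to 4897 CPM at D14, against 481 to 820 CPM at D7. The 4 of these calls with the largest change were lost in 2 to 8 of 17 alternatives. None of the 6 epidermal markers was at 0 in these libraries. The summed level of 6 mural markers was 686 to 874 CPM at D14, against 907 to 1014 CPM at D7, and 1 of the 6, *cspg4*, was called lower. Schwann cell markers summed to 256 to 307 CPM at D14, against 57.3 to 99.1 CPM at D7, and 2 of 5, *sox10* (log2 fold change 3.61) and *erbb3* (2.34), were called higher. *erbb3* made up most of these sums, with means of 245 CPM at D14 and 48.4 CPM at D7. The means of *sox10* were 11.4 and 0.917 CPM. Of 8 endothelial markers, whose sums are given above, 1 was called higher at D14, *egfl7*, at 22.5 ± 4.11 CPM at D14, against 6.23 ± 2.95 CPM at D7 (log2 fold change 1.85, SE 0.45, adjusted p = 0.0394). Macrophage markers summed to 32.4 to 38.6 CPM at D14, against 58.7 to 95.7 CPM at D7. Most of this difference lay in 1 of them, *csf1r*, with means of 12.3 CPM at D14 and 49.7 CPM at D7. The median log2 fold change of the 7 macrophage markers tested was -0.23. Of 17 alternatives, the call of *cspg4* was lost in 5, that of *sox10* in 6, that of *erbb3* in 5 and that of *egfl7* in 8. The part of all these markers in the *pdgfrb* level was not tested.

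**Figure D3:**
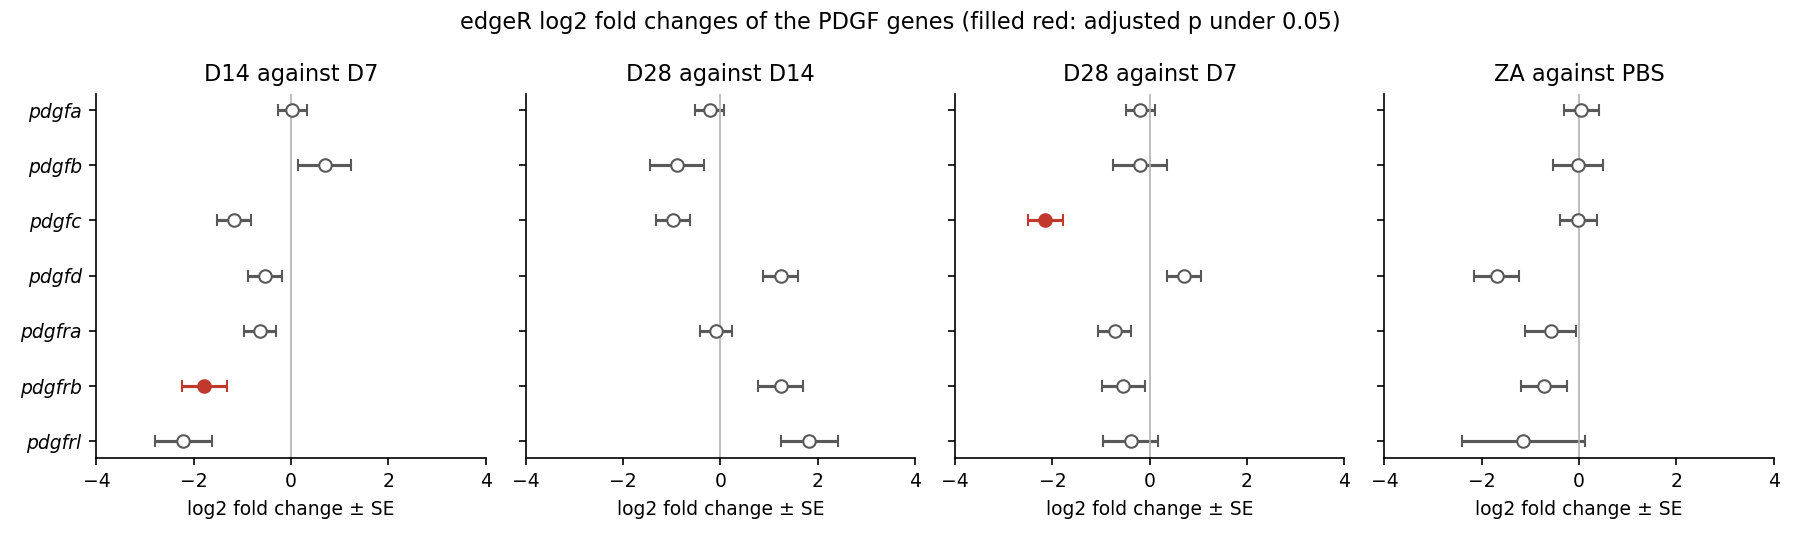
Log2 fold change ± SE (x axis) of each of the 7 genes (y axis) in the 4 comparisons, from edgeR's quasi-likelihood test, with called genes filled. The filled points are *pdgfrb* at D14 against D7 (-1.78) and *pdgfc* at D28 against D7 (-2.15).

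The ratio of *pdgfra* to *pdgfrb* counts within a library was formed, since it does not depend on library scaling. The log2 ratio, with 1 added to each count, was -1, -0.84 and -0.40 at D7, 0.55, 0.22 and 0.38 at D14, and -2.44, 0.36 and -0.40 at D28. All D14 libraries lay above all D7 libraries, and D28 was spread by library D28 A, whose ratio was the lowest of all 15. At D14 the mean log2 ratio exceeded that at D7 by 1.13 (exact permutation test, 2-sided, p = 0.1, which is the smallest p that 3 against 3 can give, and 0.4 after adjustment over 4 comparisons). The difference of D28 minus D14 was -1.21 (exact permutation p = 0.2), and that of D28 minus D7 was -0.08 (exact permutation p = 0.9). Without D28 A these differences were -0.41 and 0.72. The ZA libraries had log2 ratios of -0.86, 0.49 and -0.16, against -0.35, 0.10 and -0.40 in PBS libraries, with a difference of 0.04 (exact permutation p = 1).

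**Figure D4:**
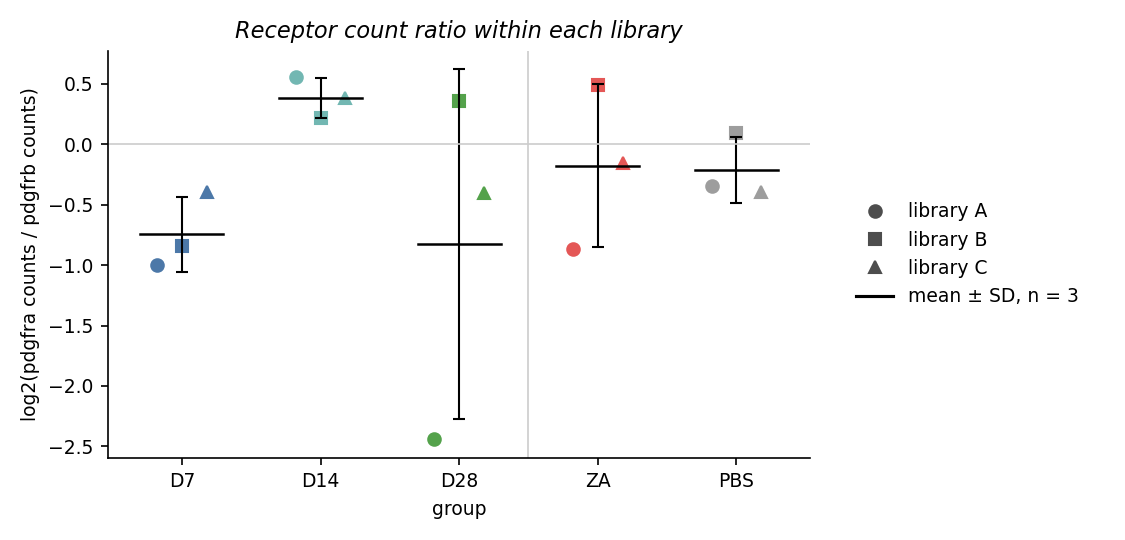
Log2 ratio of *pdgfra* to *pdgfrb* counts (y axis, 1 added to each count) in each library of the 5 groups (x axis), with bars for the mean ± SD of 3 libraries. The D14 libraries sit between 0.22 and 0.55 and the D7 libraries between -1 and -0.40, while D28 A lies at -2.44.

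ZA against PBS gave 0 member calls in either direction, where 0.0105% of all genes tested were higher and 0.0369% lower. With edgeR 1 member, *pdgfd*, had an unadjusted p under 0.05, where 4.57% of genes did, and DESeq2 also called 0 members and 0.365% of genes. Across all genes 9 were called, and 32 with the replicate letter as a block, which called 0 members as well. The median log2 fold change of the members was -0.59, beside 0.01 over all genes. Marker lists differed as well. Their medians were -4.80 for chondrocyte, -0.98 for fibroblast, -0.97 for Schwann cell, -0.77 for mural and -0.46 for endothelial markers. They were 0.04 for skeletal muscle, 0.69 for macrophage and 0.91 for epidermal markers. The part of these markers in the member levels was not tested. *pdgfd*, *pdgfra*, *pdgfrb* and *pdgfrl* were lower in the ZA library than in the PBS library of each letter, while *pdgfa*, *pdgfb* and *pdgfc* went either way by letter. Letter A is the pair whose recorded treatments disagreed with the titles. With the block the adjusted p-values of *pdgfd*, *pdgfra*, *pdgfrb* and *pdgfrl* were 0.123, 0.446, 0.342 and 0.798. How many of all genes tested were lower in ZA in every letter was not counted, so this pattern has no background.

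A list of genes whose products process PDGFs, bind them or act with their receptors was examined beside the members. Of 14 tested, 1 was called higher and 4 lower at D14 against D7, with a median log2 fold change of -1.09 beside 0.06 over all genes. *st14*, which encodes the PDGF-D-cutting protease matriptase, rose to 164 ± 27.1 CPM at D14, against 36.4 ± 11.6 CPM at D7 (log2 fold change 2.17, SE 0.42, adjusted p = 0.0163). *nrp2*, a co-receptor of several growth factors, had 61.3, 61.0 and 101 CPM at D14, against 179, 227 and 214 CPM at D7 (log2 fold change -1.47, SE 0.31, adjusted p = 0.0215). *plat* and *plau*, the genes of tissue plasminogen activator and urokinase, did not pass the test, with log2 fold changes of -1.08 (adjusted p = 0.0956) and 1.07 (adjusted p = 0.112). *lrp1*, whose product binds to PDGFRB, had a log2 fold change of -1.45 (adjusted p = 0.0672). The calls of *st14* and *nrp2* were lost without D7 B, D7 C, D14 A or D14 B, with adjusted p-values of up to 0.0987 for *st14* and 0.125 for *nrp2*.

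*cspg4*, the gene of the NG2 proteoglycan that binds PDGF on pericytes, changed at each step. It had 114, 151 and 119.9 CPM at D7, 42.7, 46.3 and 46.1 CPM at D14, and 221, 287 and 367 CPM at D28. No timepoint overlapped another. It was lower at D14 than at D7 (log2 fold change -1.51, SE 0.29, adjusted p = 0.0150) and higher at D28 than at D14 (2.69, SE 0.30, adjusted p = 0.00261) and than at D7 (1.19, SE 0.28, adjusted p = 0.0276). The D28 against D14 call of *cspg4* was kept in 17 of 17 alternatives. That of D14 against D7 was lost without D7 B, D7 C or any 1 D14 library (adjusted p up to 0.0914), and that of D28 against D7 was lost in 7 of 17 alternatives, among them the replicate block and each fit without 1 D7 library (up to 0.112). The other calls at D28 against D14 were *sparc*, a matrix protein gene whose product binds PDGF-B, at 329 ± 83.6 CPM at D28, against 89.3 ± 32.7 CPM at D14 (log2 fold change 1.88, SE 0.38, adjusted p = 0.0403), and *thbs2*, a thrombospondin gene, at 1.78 (SE 0.33, adjusted p = 0.0288). Both were lost without any 1 of the D7 or D14 libraries or without D28 C (adjusted p up to 0.233 for *sparc* and 0.195 for *thbs2*), and *sparc* also with library totals alone, the replicate block and the fit of all 15 libraries. In all, 3 of 14 genes of the list were called higher and 0 lower at D28 against D14, with a median of 0.64 beside 0.05 over all genes. Against D7, 2 genes were higher and 1 lower at D28, with *st14* at 1.62 (SE 0.41, adjusted p = 0.0349) and *pcsk6*, a furin-type convertase gene, at -1.23 (SE 0.28, adjusted p = 0.0239). Both were lost with the replicate block, without D28 C and without any 1 D7 library, and *st14* also without D28 B or any 1 D14 library (adjusted p up to 0.148 for *st14* and 0.0867 for *pcsk6*). ZA against PBS gave 0 calls of 14. *cspg4* had 34.0, 64.1 and 93.9 CPM in ZA libraries, against 238, 162 and 243 CPM in PBS libraries, without overlap (log2 fold change -1.74, SE 0.43, adjusted p = 0.579, and -1.82 with an adjusted p of 0.0955 with the replicate block), and *st14* had 226, 224 and 233 CPM in ZA libraries, against 194, 118 and 102 CPM in PBS libraries (log2 fold change 0.72, SE 0.37, adjusted p = 0.999). The block also gave 0 calls of 14. *cspg4* is itself one of the mural markers, of which 3 of 6 were called higher at D28 against D14, the others being *kcnj8* (2.93, adjusted p = 0.0473) and *des* (2.55, adjusted p = 0.0461), calls that were lost in 12 and 10 of 17 alternatives. The median log2 fold change of the mural markers was 1.94 at D28 against D14. Mural markers summed to 642 to 1693 CPM at D28, against 686 to 874 CPM at D14. Of the D14 sums the called genes made up a small part, with means of 45.0 CPM (*cspg4*), 3.99 CPM (*des*) and 1.43 CPM (*kcnj8*). The part of the mural markers in the *cspg4* level was not tested.

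**Figure D5:**
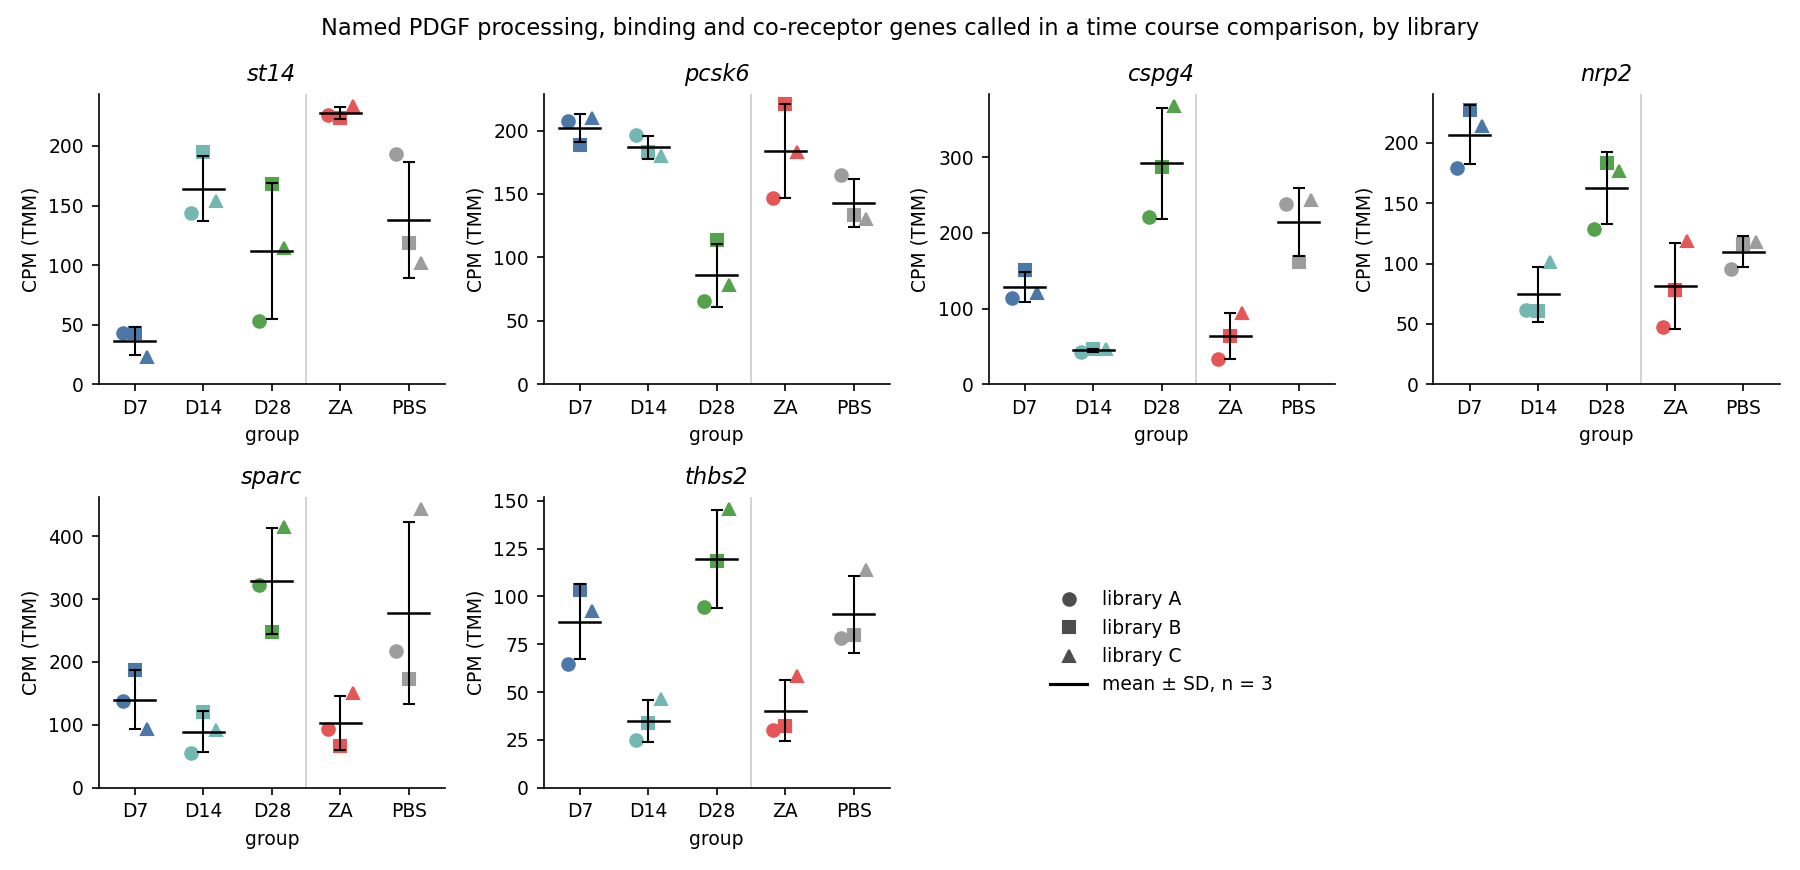
Level in CPM after TMM scaling (y axis) of 6 genes for PDGF processing, binding and co-receptors that were called in a time course comparison, by group (x axis), with libraries as points and bars for the mean ± SD of 3 libraries. *cspg4* had 42.7 to 46.3 CPM at D14 and 221 to 367 CPM at D28, and *st14* had 144 to 195 CPM at D14 against 23.0 to 43.3 CPM at D7.

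Of 13 tested genes for related receptors and their ligands, 2 were called lower and 0 higher at D14 against D7. *csf1*, which encodes macrophage colony-stimulating factor, had 14.8, 16.6 and 26.5 CPM at D14, against 90.6, 114 and 117 CPM at D7 (log2 fold change -2.47, SE 0.39, adjusted p = 0.00762), a call that was lost without D7 B, D14 A or D14 B (up to 0.0554). *csf1r*, its receptor and the neighbour of *pdgfrb*, had 11.2, 12.6 and 13.3 CPM at D14, against 68.1, 47.6 and 33.4 CPM at D7 (log2 fold change -2.01, SE 0.46, adjusted p = 0.0322). *csf1r* fell at the same step as *pdgfrb* and was also high in D28 A, at 51.1 CPM, beside 13.9 and 40.3 CPM in D28 B and D28 C. It is also one of the macrophage markers, which summed to 126, 26.3 and 112 CPM in D28 A, D28 B and D28 C. The part of gene position or of macrophages in these levels was not tested. The *csf1r* call was lost in 8 of 17 alternatives, among them library totals alone, the replicate block and each fit without 1 D7 or D14 library. The *pdgfra* neighbours *kit* and *kdr*, with *kdr* the gene of the main VEGF receptor, had at most 7.3 and 8.5 CPM in any library and were not called. At D28 against D7 only *csf1* was called in this list (log2 fold change -1.52, SE 0.37, adjusted p = 0.0303), a call that was lost in 5 of 17 alternatives, namely the fit of all 15 libraries and those without D28 B or any 1 D7 library (up to 0.110). At D28 against D14 and in ZA against PBS there were 0 calls in it. The medians of the list lay between -0.19 and 0.17.

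The intracellular partners of the receptors gave 1 call over the 4 comparisons. Of 23 adaptor and effector genes 0 were called at D14 against D7, at D28 against D14 and in ZA against PBS, and 1 was called at D28 against D7, with list medians between -0.08 and 0.07. The called gene was *pik3r1*, the regulatory subunit of phosphoinositide 3-kinase, at 138, 166 and 293 CPM at D28, against 75.4, 61.1 and 51.1 CPM at D7 (log2 fold change 1.67, SE 0.34, adjusted p = 0.0154), a call that was lost without D7 B or D7 C (up to 0.0819). Of 20 genes that respond to growth factors, 1 was called higher and 3 lower at D14 against D7. *egr3*, an immediate-early transcription factor gene, rose to 1219 ± 189 CPM at D14, against 225 ± 4.31 CPM at D7 (log2 fold change 2.43, SE 0.30, adjusted p = 0.00476). *spry2* and *spry1*, feedback inhibitors of receptor tyrosine kinase signaling, fell by 1.69 and 1.52 on the log2 scale (adjusted p = 0.0219 and 0.0198), and *has2*, a hyaluronan synthase gene, fell by 1.23 (adjusted p = 0.0302). Later, at D28 against D7, *egr3* was higher (1.88, SE 0.29, adjusted p = 0.00665), whereas the cyclin gene *ccnd1* (-1.38, SE 0.33, adjusted p = 0.0273) and *spry1* (-1.09, SE 0.30, adjusted p = 0.0471) were lower, and the other comparisons gave 0 calls. Both *egr3* calls were kept in 17 of 17 alternatives, whereas those of *spry1*, *spry2*, *has2* and *ccnd1* were lost in 5 to 10 of 17, each without D7 B or without D7 C among others (up to 0.172). The list medians were -0.47 at D14 against D7 and -0.43 at D28 against D7.

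For each member the 3 most alike genes were taken by Spearman's rho of log2 levels over the 15 libraries, which share 5 groups, their depth and their sort. *pdgfc* was most like *plk1* (0.98) and *espl1* (0.95), genes of mitotic division, and *tafa1* (0.95). *pdgfd* was most like *sh3pxd2a* (0.94), a gene of invasive cell protrusions, *cspg4* (0.88) and *rph3al* (0.88). *pdgfra* was most like *uhrf2* (0.96), *nrk* (0.94) and *ptk2* (0.94), the gene of focal adhesion kinase. *pdgfrb* was most like the transcription factor gene *ets1* (0.96), *mme* (0.95) and *atp2b4* (0.95). *pdgfrl* followed *gfra1* (0.88), *pde4c* (0.88) and *lrrc8c* (0.86), and *pdgfb* followed *osgin1* (0.93), *nudt17* (0.90) and *tp73* (0.90). *pdgfa*, with the smallest differences between groups, reached 0.77 with *reep5*, 0.75 with *sun2* and 0.74 with *mbd3*. Between members the highest rho was that of *pdgfra* with *pdgfrb* (0.69), followed by *pdgfc* with *pdgfra* (0.53), and the lowest was that of *pdgfb* with *pdgfrl* (-0.57). These are descriptions of 15 points and were not tested.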

How the data were processed

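The authors aligned reads with STAR to rAnoCar3.1.pri and deposited whole-number counts per gene for each of 15 libraries. These values are named as normalized but were used as counts, since library totals differed. SAMtools 1.17 and DESeq2 1.45.1 stand in the submitters' processing notes. The counting tool, its strand setting and any removal of duplicates are not given in the sources used here. The libraries were made with a stranded total RNA kit from fixed cells. According to the study's text 1 D14 library was sequenced before the rest of the time course and did not cluster with its timepoint. The labels do not say which, so that this batch could not enter a fit. In the counts used here the median correlation within the group was 0.964 to 0.970 for D14 libraries, and D28 A was the lowest at 0.749. The study also reports similar batch effects for the D21 libraries. By symbol, 26339 of 26523 genes matched RefSeq's annotation of the same assembly. No sequences were shown, since none were given.

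The members and all gene lists were chosen with earlier results of these data known. Groups and letters were taken from sample titles. TMM factors over all 15 libraries scaled the CPM values and the fits. The filter of 10 counts in 3 or more libraries of a fit was followed by the test of edgeR 4.0.16 (quasi-likelihood, R 4.3.3), with 9 time course libraries in 1 fit (6 residual degrees of freedom) and 6 PBS and ZA libraries in another (4). Comparisons of timepoints share their libraries. SEs were derived from the log2 fold change and the F statistic. All 7 members are named, and from each of the 12 other lists up to 4 called genes with the largest change per comparison. One gene of these lists is counted but not reported here. A few others are named as context, chosen after their values were seen. These are *plat*, *plau*, *lrp1*, *kit*, *kdr*, *col3a1*, *dcn*, *fap*, and genes named in 1 comparison and given in another. For each member the 3 most alike genes with a mean count of at least 50 and a named symbol were taken. Count ratios were compared by a 2-sided exact permutation test. DESeq2 1.42.0, other scalings, other filters, a fit of all 15 libraries, the letter as a block, each library left out, and other readings of the PBS A and ZA A labels were the alternatives. The fits were run on simulated counts with a fixed spread, no outlying library and planted changes larger than any member's in the main fits. That run does not show how well changes of the members' size are found in these data. Plots used matplotlib 3.10.9 in Python 3.11.15.

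The deviations of ZA and PBS libraries from their group means were correlated over genes. The same-letter values were 0.28 (A), 0.22 (B) and 0.18 (C), and 6 of 6 libraries correlated best with their own letter, so that letters were taken to pair these samples. The main ZA fit, the permutation test of the ratio and the statements on overlap did not use this pairing. With the block the SE was 0.26 for *pdgfrb*, 0.29 for *pdgfra* and 1.36 for *pdgfrl*. Without it these SEs were 0.47, 0.52 and 1.26.

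Marker lists gave these further calls, to be read beside the shares over all genes tested given above. Of 5 Schwann cell and 6 fibroblast markers, 1 each (*mpz* and *col1a1*) was higher at D28 against D14. At D28 against D7, 4 of 5 Schwann cell, 2 of 5 skeletal muscle, 6 of 6 epidermal, 5 of 7 chondrocyte, 1 of 6 mural (*cspg4*) and 1 of 6 fibroblast (*lum*) markers were higher. At D14 against D7, 1 of 7 macrophage markers (*csf1r*) was lower. All other counts of the 8 marker lists not given here or above were 0. For ZA against PBS the block added 4 chondrocyte calls and 1 Schwann cell call (*mpz*, lower), and no call in any other list.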

Additional observations from a re-analysis of the deposited data

How the results depend on the processing

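Of 467 alternative values of 28 member results, 433 kept their direction and their side of the threshold, 16 changed sign, 10 were no longer past the threshold and 8 newly passed it. Of 882 alternative values for the other named genes, 619 kept both, 0 changed sign and 263 were no longer past the threshold. Members called at D14 against D7 numbered 1, but 3 with DESeq2, 2 with a mean count of at least 50, 0 with DESeq2's size factors, with library totals alone or with the replicate block, and 0 to 3 with 1 library left out. At D28 against D14 they numbered 0, but 2 with DESeq2 and 0 to 1 with 1 library left out. Genes called at D14 against D7 numbered 980, but 2613 with DESeq2, 591 with the replicate block and 55 to 3550 with 1 library left out. At D28 against D14 they numbered 218, but 771, 114 and 34 to 851 in the same settings, and at D28 against D7 1756, but 3739, 842 and 300 to 4169. For ZA against PBS they numbered 9, but 69 with DESeq2, 5 with its size factors, 25 with no filter, 20 with all 15 libraries in one fit, 32 with the replicate block, 1 without PBS A and ZA A, 1 with the treatment entries as written, and 0 to 6 with 1 library left out. The cause was not tested.

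Signs changed for values near 0. With 1 library left out the log2 fold changes ranged from -0.14 to 0.15 for *pdgfa* at D14 against D7 and from -0.41 to 0.19 for *pdgfra* at D28 against D14. At D28 against D7 they ranged from -0.93 to 0.22 for *pdgfb* and from -0.69 to 0.19 for *pdgfrl*. For ZA against PBS they ranged from -0.13 to 0.20 for *pdgfa*, from -0.39 to 0.34 for *pdgfb* and from -0.14 to 0.13 for *pdgfc*. The *pdgfb* value was 0.18 without PBS A and ZA A and 0.53 with the entries as written, and the *pdgfc* value was 0.026 with the entries as written. The difference in log2 receptor ratio ranged from -0.68 to 0.72 for D28 against D7 and from -0.29 to 0.38 for ZA against PBS. Library totals alone moved the median of all genes at D14 against D7 to 0.26 and at D28 against D14 to -0.12, and the share of calls that were higher to 64.2% and 50.8%, beside 48.9% and 66.1% with TMM, and no member changed sign there. *pdgfrl* could not be tested in 2 ZA alternatives.

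In the time course, libraries of the same letter correlated between -0.15 and 0.15. At D14 against D7, 3 of 6 libraries correlated best with their own letter. At D28 against D14 and at D28 against D7, 0 of 6 did. Letters were therefore not taken to pair time course libraries, and the block is given there only as an alternative. Counts were fewest for *pdgfrl*, with as few as 3 in library ZA B, whose total was 12444012 counts. With the block the *pdgfrb* call at D14 against D7 was lost (adjusted p = 0.0927), and no other member call changed.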
